A study of Mus musculus with 8 samples.

Results

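The 64 NF-YA peaks described here were those assigned to protein-coding genes of chromatin modifier and remodeller families, chosen by gene symbol alone (histone lysine and arginine methyltransferases, demethylases, acetyltransferases, deacetylases and sirtuins, DNA methylation proteins, Polycomb and chromobox proteins, SWI/SNF, ISWI and CHD remodellers, ARID, ING and bromodomain proteins). They belonged to 51 genes, out of 7196 peaks in all and 3837 peaks assigned to protein-coding genes. GENCODE M21 lists 155 protein-coding symbols that match the rule, so 104 had no assigned peak. NF-YA binding was measured by CUT&RUN, in which an antibody directs a nuclease to the bound DNA, in cultured muscle stem cells (MuSCs) of adult mice on a C57BL/6 background, in the activated and proliferating state. Control MuSCs were compared with Taf4asKO MuSCs, in which tamoxifen had activated a Cre recombinase driven by Pax7 that removes floxed exons of Taf4a, the gene of a TFIID subunit. By the study's methods, control littermates carried the floxed alleles too, with or without the Cre, whereas the titles of the control libraries call them WT. Each group had 2 NF-YA libraries, and the matching IgG libraries were not analysed here. The labels do not say whether the 2 libraries of a group came from separate animals, so p-values measure the spread between these libraries, which may be technical. The deletion itself and the identity of the cells were not checked here, since NF-YA binding measures neither.

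NF-Y is a trimeric transcription factor whose NF-YA subunit reads the pentamer CCAAT, a common element of promoters that usually lies a short way upstream of the transcription start. Chromatin modifiers add, remove or read chemical marks on histones and DNA, and remodellers use ATP to move nucleosomes. In MuSCs such proteins keep quiescent cells in their state and change gene programmes when the cells divide.

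The sites below are the CCAAT nearest to the centre of the peak, for strong peaks and for peaks with a large difference between the genotypes. Each is 30 bases long, read 5′ to 3′ on the strand that reads CCAAT, with the pentamer in capitals, and was taken from the RefSeq GRCm38 sequence, the build of the peak coordinates (mm10).
Kmt5c: cggctctttaagCCAATgaaagcactgatt
Kdm4a: gtcctcagctaaCCAATgaacactcactac
Ing1: actgcccgccccCCAATgactctgtagcac
Cbx5: gcgcctgcgcaaCCAATcctgggcttggac
Prmt1: ggtgaattttacCCAATcgtcacacgtgct
Mbd3: agggcatggagaCCAATcagcgctcagaac
Prmt5: ccgctgctcccaCCAATccgcaattctcac
Kdm4b: ctcggggttggaCCAATgaagggaagaaat
Uhrf1: ccacagcgccagCCAATcaggaatcaagag
Kdm4d: ctgacgcagtgaCCAATcagcaaagacacg
Hdac2: agtcagggctgaCCAATgggtagcactttc
Cbx2: ggagacacaccgCCAATcagctttgagaag
They lay at chr7:4739845-4739874 (+ strand), chr4:118180058-118180087 (+), chr8:11558113-11558142 (-), chr15:103239860-103239889 (+), chr7:44986594-44986623 (-), chr10:80399694-80399723 (+), chr14:54517500-54517529 (+), chr17:56325849-56325878 (+), chr17:56303295-56303324 (+), chr9:14500477-14500506 (-), chr10:36965823-36965852 (-) and chr11:119026418-119026447 (-), in the same order. The pentamer was followed by CAG at Mbd3, Uhrf1, Kdm4d and Cbx2, whose mean control values ran from 425 at Mbd3 to 6.50 at Cbx2.

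Longer stretches show how the pentamers were arranged. The central 200 bases of the Arid4a and Kmt5c peaks, of the promoter peaks of Mbd3 and Chd6, of the upstream peak of Kdm6b and of the distal Hdac2 peak are given on the strand of the gene, with CCAAT and its complement ATTGG in capitals.
Arid4a, chr12:71015739-71015938 (+): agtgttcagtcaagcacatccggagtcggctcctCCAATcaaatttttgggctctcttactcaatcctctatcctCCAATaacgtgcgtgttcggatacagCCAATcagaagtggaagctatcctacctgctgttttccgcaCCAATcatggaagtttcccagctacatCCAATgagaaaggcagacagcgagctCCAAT
Kmt5c, chr7:4739772-4739971 (+): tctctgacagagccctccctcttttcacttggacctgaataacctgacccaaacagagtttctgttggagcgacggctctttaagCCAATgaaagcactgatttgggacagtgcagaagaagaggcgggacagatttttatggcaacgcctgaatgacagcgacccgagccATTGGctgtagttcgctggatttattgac
Mbd3, chr10:80399601-80399800 (-): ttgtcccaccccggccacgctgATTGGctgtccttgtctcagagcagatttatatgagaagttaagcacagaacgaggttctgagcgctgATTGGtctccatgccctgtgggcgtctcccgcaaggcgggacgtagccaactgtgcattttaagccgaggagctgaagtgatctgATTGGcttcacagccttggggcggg
Chd6, chr2:161109080-161109279 (-): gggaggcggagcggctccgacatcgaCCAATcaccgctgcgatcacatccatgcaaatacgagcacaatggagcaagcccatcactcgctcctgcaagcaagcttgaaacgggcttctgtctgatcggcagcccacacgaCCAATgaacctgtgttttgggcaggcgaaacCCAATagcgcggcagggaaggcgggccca
Kdm6b, chr11:69418934-69419133 (-): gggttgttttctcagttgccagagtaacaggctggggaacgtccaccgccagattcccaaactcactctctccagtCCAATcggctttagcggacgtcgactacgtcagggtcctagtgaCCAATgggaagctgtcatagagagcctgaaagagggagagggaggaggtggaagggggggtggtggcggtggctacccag
Hdac2, chr10:36965772-36965971 (+): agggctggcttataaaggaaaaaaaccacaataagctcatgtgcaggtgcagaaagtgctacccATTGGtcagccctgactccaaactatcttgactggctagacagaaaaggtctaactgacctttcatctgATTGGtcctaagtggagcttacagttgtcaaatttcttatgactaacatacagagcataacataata
Arid4a held 6 CCAAT in this stretch, all on the strand of the gene and with 26, 27 or 41 bases from each to the next, and 9 in its whole peak of 478 bases, again all on that strand. The 3 pentamers of Mbd3 all read ATTGG on the strand of the gene, 68 and 85 bases apart. The 2 in the Kdm6b stretch were 44 bases apart, and the 2 in the Hdac2 stretch 69 bases apart and both on the strand opposite to Hdac2.

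CCAAT, counted on both strands in the central 200 bases, was found in 55 of the 64 peaks, 85.9% with a 95% Wilson interval of 75.4% to 92.4%. The other 3773 protein-coding peaks held it in 82.9%, inside that interval, and all 7196 peaks in 78.5%. Among chromatin peaks with a mean of 100 or more it was found in 17 of 21 (81.0%, 95% Wilson interval 60.0% to 92.3%). The other protein-coding peaks of that strength held it in 94.3%. In stretches of the same length about 1000 bases to either side of the 64 peaks the share was 21.9%. The nearest CCAAT lay at a median of 20 bases from the peak centre over the 56 peaks that held at least 1 pentamer over their whole width, and at a median of 19 bases over the 3104 other protein-coding peaks that did. Of the 140 pentamers in the whole peaks, 47 (33.6%) were followed by CA, against 27.7% of the 6387 pentamers of the other protein-coding peaks. Within 50 bases of the peak centre lay 61 of the 140 (43.6%), against 59.7% of the 6387. GGGCGG, the GC box read by Sp-family factors, was found on either strand in the central 200 bases of 32 of the 64 chromatin peaks and of 44.4% of the other protein-coding peaks. Of the 38 peaks with 2 or more pentamers over their whole width, 23 had all of them on a single strand, as had 10 of the 22 with 3 or more. The same count was not made for the other protein-coding peaks. In peaks within 1000 bases of the start, 59 of 100 pentamers read CCAAT on the strand of the gene. For the other protein-coding peaks there it was 50.6% of 4923. Prmt1 (5 of 5 at its start), Kmt5a (4 of 4 at its start) and Chd6 (3 of 3) had them all on the strand of the gene, and the Kdm6b peak 4971 bases into the gene had 4 of 4 on the opposite strand. The Cbx5 peak was the widest, with 1160 bases and 10 pentamers, 3 on the strand of Cbx5 and 7 on the other. The peak at the start of Kdm6a, an H3K27 demethylase of the X chromosome, held none over its 393 bases.

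**Figure D1:**
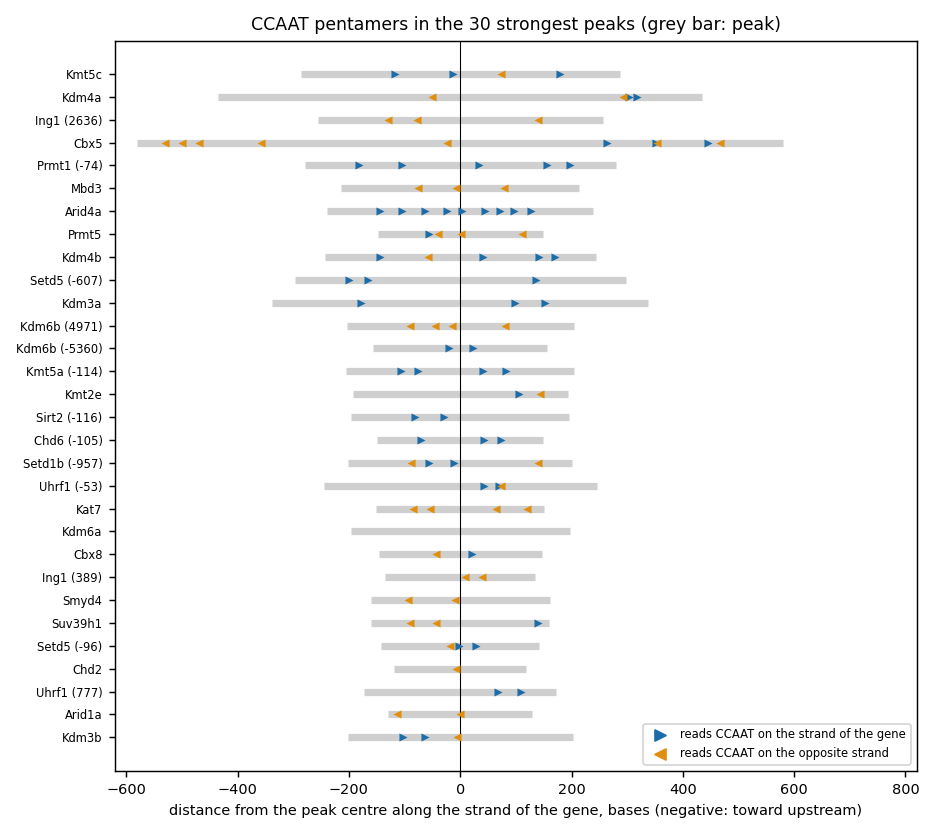
Positions of CCAAT in the 30 peaks with the highest mean control value, strongest at the top. The x axis is the distance from the peak centre in bases along the strand of the assigned gene, grey bars are the peaks, and the direction and colour of each arrowhead give the strand; Arid4a shows a row of 9 arrowheads pointing the same way, Cbx5 the widest peak, and Kdm6a none.

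The values are reads per peak as normalised across libraries and rounded by the authors, without a unit of length. They summed to between 316959 and 367346 per library over all peaks, but the depth behind them differed. In the control libraries the values fell on steps that put 1 read at 1.04 units in replicate 1 and at 3.26 units in replicate 2, which amounts to about 351696 and 111265 reads in peaks. The search covered only steps above 1 unit and found none in the Taf4asKO libraries, so their reads could not be recovered. The lowest whole number not seen among the values was 173 in Taf4asKO replicate 1 and 168 in replicate 2. In the control libraries it was 12 and 1. In the Taf4asKO libraries 1 read was thus worth about 1 unit or less, so both held more reads in peaks than control replicate 2. Over the 64 peaks the median count was 61.5 reads in control replicate 1 and 18.5 in replicate 2, and 22 peaks had under 10 reads in replicate 2. Small values therefore carry large counting error, which the steps show most clearly in control replicate 2.

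Of the 64 peaks, 39 (60.9%, 95% Wilson interval 48.7% to 71.9%) had their centre within 1000 bases of the start of the assigned gene, and 26 (40.6%) within 200 bases. The other protein-coding peaks did so in 67.5% and 49.3%. By GENCODE M21, 30 of the centres were intergenic, 19 intronic, 9 in an annotated UTR and 6 in another exon. Of the 25 peaks beyond 1000 bases, 5 lay within 1000 bases of the start of another transcript of the same gene and 3 within 1000 bases of the start of another gene, which left 17 far from any annotated start. The strong Ing1 peak, 2636 bases into the gene, was 10 bases from the start of an alternative Ing1 transcript, and the Kmt5a peak at 6788 bases was 14 bases from one of Kmt5a. The peak assigned to Kdm5a lay 6714 bases upstream of it and 1 base from the start of Ccdc77, and the peak assigned to Kmt2e lay 1151 bases upstream and 19 bases from the start of the noncoding 5031425E22Rik. Several promoters were shared: Cbx5 with Hnrnpa1, Sirt2 with Nfkbib, Kdm4d with Cwc15, Mbd4 with Ift122 and Smyd4 with Rpa1 start in opposite directions within 1000 bases, so a peak there cannot be given to either gene alone. In all, 7 peaks (10.9%) had such a divergent coding partner, against 10.4% of the other protein-coding peaks. Both Setd5 peaks lay inside the noncoding gene Gt(ROSA)26Sor, upstream of Setd5. The Arid4a peak, 150 bases upstream of Arid4a, was 7 bases from the start of the noncoding 3110056K07Rik. The upstream Setd1b peak was 147 bases from the start of the noncoding AI480526, and the Chd2 peak 59 bases from that of the antisense Gm44686. These peaks, too, cannot be given to the chromatin gene alone.

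**Figure D2:**
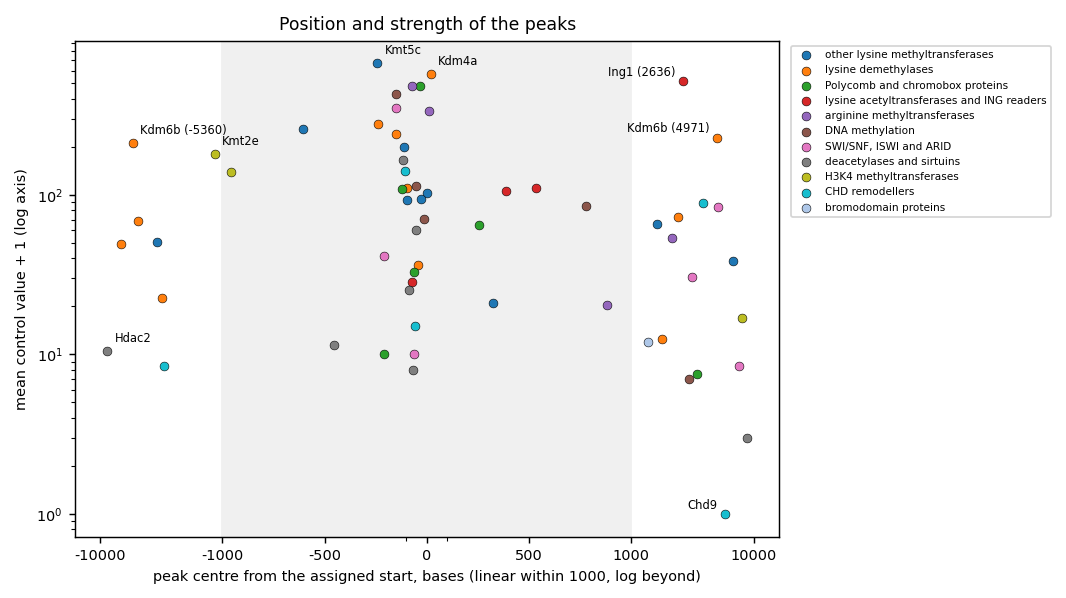
Position and control strength of the peaks reported, coloured by family. The x axis is the distance of the peak centre from the start of the assigned gene in bases (negative upstream, linear within 1000 bases, shaded, and logarithmic beyond) and the y axis is the mean control value plus 1 on a log scale; the strongest peaks crowd just upstream of the start, with Ing1 and Kdm6b as strong peaks inside the gene.

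The promoters of these families were also read without regard to the peaks, as the RefSeq GRCm38.p6 sequence of 300 bases across each annotated start, most of it upstream. Of the 33 genes with a peak within 1000 bases of the start, 28 were matched by symbol, and 26 of them (92.9%) had CCAAT on either strand in at least 1 promoter. Of the 104 genes without a peak, 85 were matched and 29 (34.1%) had it. Over 17492 protein-coding genes the share was 42.3%. With at least 2 pentamers in a promoter the shares were 71.4%, 7.06% and 14.6%. Counted per promoter instead of per gene, the shares with CCAAT were 78.0%, 28.8% and 38.2%. With the genes whose peaks lay farther from the start included, 39 genes with a peak were matched, and 28 of them (71.8%) had CCAAT and 20 (51.3%) at least 2. Promoters of other genes with an NF-YA peak at the start were not counted. Among peaks within 1000 bases of the start, 82.1% of the chromatin peaks held CCAAT in their central 200 bases. Of the other protein-coding peaks there 88.2% did. Dnmt1, Dnmt3a, Smarca4, Kmt2a, Kdm1a, Sirt1 and Ehmt2 were among the genes without an assigned peak, as were Suv39h2 and Smyd5. A gene without an assigned peak was not shown to be unbound, since only called peaks are listed.

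The mean value over the 4 libraries ran from 2.50 at Chd9 to 609 at Kmt5c, with a median of 61.0, above the median of 34.2 for the other protein-coding peaks and 17.2 for all peaks. The chromatin peaks were also wider, with a median of 276.5 bases against 199 and 171, and the values are not per base. A mean of at least 100 was reached by 21 of the 64 (32.8%, 95% Wilson interval 22.6% to 45.0%) and by 22.4% of the other protein-coding peaks. By mean control value Kmt5c stood at rank 25 of the 7196 peaks, Kdm4a at 43, the stronger Ing1 peak at 55, Cbx5 at 67, Prmt1 at 71 and Mbd3 at 96. These ranks are of reads per peak, not per base, and the peaks differ in width, from 427 bases at Mbd3 to 1160 at Cbx5. In control values Kdm4a (573 and 567) stood apart from Kmt5c (690 and 643) and from Ing1 (518 and 512), whereas Ing1 overlapped with Cbx5 (513 and 447) and Cbx5 with Prmt1 (487 and 466). Coverage by symbol was uneven: 10 of 17 symbols taken as lysine demethylases and 6 of 12 as Polycomb and chromobox proteins had a peak, against 2 of 9 as arginine methyltransferases, 1 of 8 as bromodomain proteins and 4 of 20 as DNA methylation proteins. The symbol rule also counts in genes that only share a name, such as Brd3os, Uhrf1bp1 and Uhrf1bp1l.

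**Figure D3:**
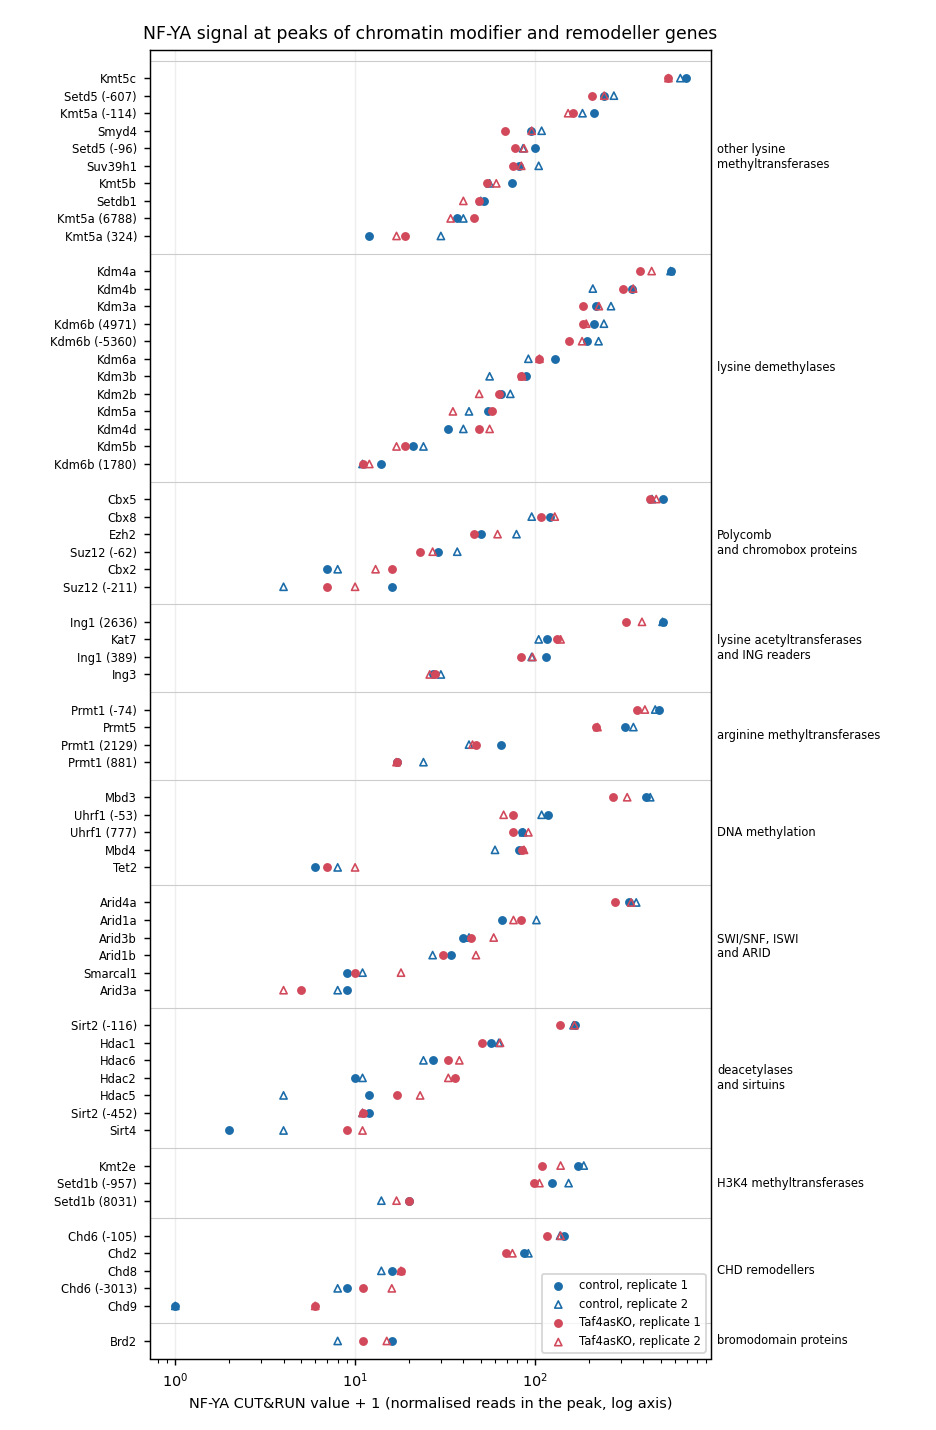
NF-YA value plus 1 (log axis) in each library at the peaks reported, grouped by family and ordered by mean. Blue marks are the 2 control and red marks the 2 Taf4asKO libraries (circle replicate 1, triangle replicate 2), and the number in brackets is the distance of the peak from the gene start where a gene has several peaks; at 18 of the 21 peaks whose mean reached 100 the log2 fold change was below 0 and the red marks lie mostly to the left, and among the tested peaks Hdac2 shows the widest gap to the right.

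For the comparison of Taf4asKO with control MuSCs, 58 of the 64 peaks reached a mean of 10 and were tested with limma on log2(value + 1) together with all 4746 such peaks. Of all tested peaks 0.948% passed a Benjamini-Hochberg adjusted p of 0.05, 16 of them higher and 29 lower in Taf4asKO. Of the chromatin peaks 1 of 58 passed, the distal Hdac2 peak, which was higher. Its control mean was 9.50, so it reached the minimum mean only through its Taf4asKO values. An unadjusted p under 0.05 was reached by 11 of 58, or 19.0%, against 17.9% of all tested peaks. Both Taf4asKO values were below both control values at 17 of 58 peaks (29.3%), against 28.6% of all tested peaks, and above both at 10 of 58 (17.2%), against 19.3%. Among the 56 peaks with a mean above 10, 2 were over 2-fold higher, Hdac5 and Hdac2, where 4.29% of all such peaks were, and 0 were over 2-fold lower, where 3.13% were. Hdac5 and Hdac2 had control means of 7 and 9.50 and passed this minimum only through Taf4asKO, where they were high. These shares are close to those of the whole table. The median log2 fold change was -0.14 over the 58 peaks and -0.04 over all tested peaks.

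The median log2 fold change was lower at strong than at weak peaks, as it was across the table. Where the mean was 100 or more, at 21 chromatin peaks, the median log2 fold change was -0.27, with 18 below and 3 above 0. All 971 tested peaks of that strength had a median of -0.22. At the 16 peaks with a mean from 10 to 30 the median was 0.16, against 0.12 for all 2127 such peaks. Of these 16, 5 (Hdac2, Smarcal1, the upstream Chd6 peak, Hdac5 and Cbx2) had a control mean below 10 and passed the minimum only through Taf4asKO; the part of the minimum in this median was not tested. Of the 971 peaks with a mean of 100 or more, 573 had both Taf4asKO values below both control values, as had 11 of the 21 chromatin peaks, and the cases named below are to be read against that share. The sign of the median depended on how the libraries were scaled. It was -0.29 over the chromatin peaks when the libraries were given equal medians over all peaks, 0.0025 with equal totals, and 0.069 when they were centred on the peaks with a mean of at least 100, a scaling chosen after the data were seen. These scalings gave the median of all tested peaks as -0.17, 0.10 and 0.16, and turned the calls over all peaks from 16 higher and 29 lower to 55 and 259, 30 and 31, and 29 and 22. With equal medians 8 chromatin peaks passed, Hdac2 higher and Prmt5, Ing1, Kdm4a, Mbd3, Uhrf1, Kmt2e and Kmt5c lower. Values lower in Taf4asKO below are therefore given on the scale of the deposited values, and none of these 7 passed on it. Equal totals and centring on strong peaks brought them closer to 0. With that centring the log2 fold changes were -0.47 at Uhrf1, -0.40 at Prmt5, -0.33 at Kmt2e, -0.32 at Ing1, -0.31 at Mbd3, -0.25 at Kdm4a and -0.062 at Kmt5c. The same centring gave -0.23 at the upstream Setd1b peak, -0.12 at the start of Kmt5a, -0.11 and -0.058 at the strong Kdm6b peaks and -0.088 at the start of Prmt1.

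**Figure D4:**
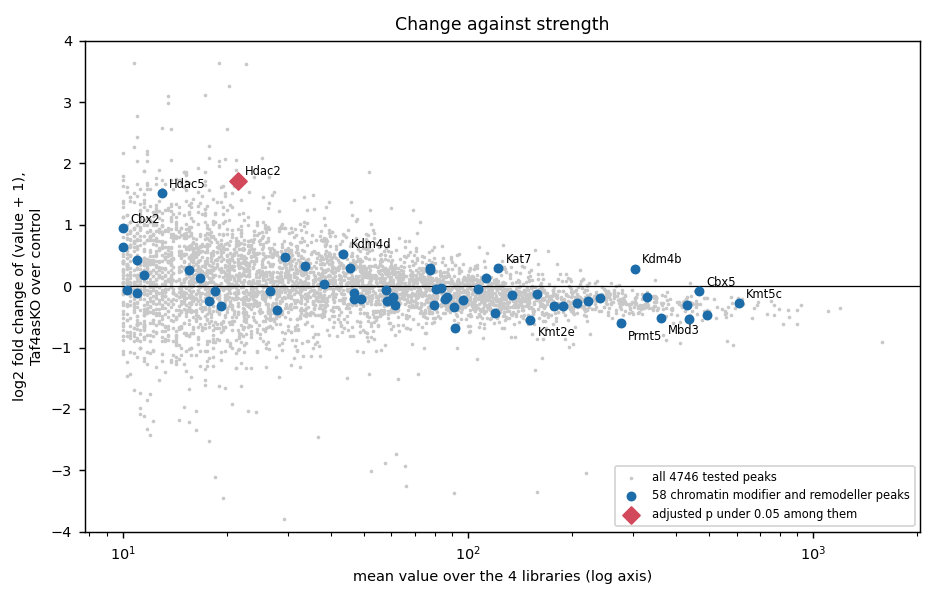
Log2 fold change of (value + 1), Taf4asKO over control, against the mean value over the 4 libraries (log axis), with all 4746 tested peaks in grey, the 58 chromatin peaks in blue and the peak that passed an adjusted p of 0.05 as a red diamond. The blue points follow the grey cloud, above 0 among many weak peaks and mostly below 0 among strong ones; Kdm4b and Kat7 lie above 0.

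Among the deacetylases, which remove acetyl groups from histones, Hdac2 gave the single call. Hdac2 encodes a class I enzyme of the NuRD, Sin3 and CoREST complexes, and its peak was intergenic, at chr10:36965717-36966027, 8672 bases upstream of the start. The values were 9 and 10 in control against 35 and 32 in Taf4asKO libraries, a ratio of means of 3.53. The groups did not overlap, and the log2 fold change was 1.72 (95% interval 0.98 to 2.45, limma adjusted p = 0.0473). The control values stood for 9 and 3 reads, and their mean was below the minimum of 10 for the test, which the Taf4asKO values alone lifted it over. The call was lost in limma when any of the 4 libraries was left out, with adjusted p from 0.187 (without control replicate 1) through 0.254 (without control replicate 2) and 0.596 (without Taf4asKO replicate 2) to 0.739 (without Taf4asKO replicate 1), and the log2 fold change stayed between 1.65 and 1.79. It was also lost without the minimum mean, where the limma adjusted p was 0.285. An exact two-sided permutation test of 2 against 2 libraries cannot go below 0.333, which is the value it gave.

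Hdac5, a class IIa deacetylase known as a repressor of MEF2 in muscle, had a weak peak 69 bases upstream of its start with values of 11 and 3 in control against 16 and 22 in Taf4asKO (log2 fold change 1.51, 95% interval 0.24 to 2.79, limma adjusted p = 0.211). The value of 3 in control replicate 2 was 1 read, and without that library the Hdac5 log2 fold change was 0.72, under 2-fold. Hdac6, an enzyme that acts largely on cytoplasmic tubulin, had 26 and 23 against 32 and 37. At Hdac1, the close relative of Hdac2, the start peak had 56 and 62 in control against 50 and 63 in Taf4asKO, which overlapped. The main Sirt2 peak, at the promoter shared with Nfkbib, had 167 and 163 in control against 137 and 165 in Taf4asKO, and a minor peak 452 bases upstream had 11 and 10 against 10 and 10. Sirt2 is an NAD-dependent deacetylase of tubulin and histone H4. Sirt4, a mitochondrial sirtuin that the symbol rule also took in, had 1 and 3 against 8 and 10 and was not tested.

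The lysine methyltransferases outside the H3K4 group held the strongest of the 64 peaks. Kmt5c, which trimethylates H4K20 in heterochromatin, had 690 and 643 in control against 550 and 552 in Taf4asKO 242 bases upstream of its start. The groups did not overlap, with a log2 fold change of -0.27 (95% interval -0.51 to -0.04, limma adjusted p = 0.220). It was -0.13 with equal totals (adjusted p = 0.346) and -0.062 when centred on strong peaks (adjusted p = 0.661). Kmt5a, which places the first methyl group on H4K20, had a start peak of 212 and 183 against 161 and 152, a weak peak 324 bases into the gene of 11 and 29 against 18 and 16, and a peak at an alternative start of 36 and 39 against 45 and 33. Kmt5b, the paralogue of Kmt5c, had 74 and 55 against 53 and 60. All 3 of these H4K20 enzymes had NF-YA peaks.

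Suv39h1, which trimethylates H3K9 at pericentric heterochromatin, had 81 and 104 in control against 75 and 83 in Taf4asKO. Setdb1, an H3K9 methyltransferase of euchromatin and silenced repeats, had 51 and 49 against 48 and 39 at a peak 3437 bases upstream. The 2 Setd5 peaks, 607 and 96 bases upstream of its start, had 240 and 274 against 208 and 242, and 99 and 85 against 77 and 86. Smyd4, whose promoter is shared with Rpa1, had 94 and 108 against 67 and 95. In this group the log2 fold change was below 0 at 9 of 10 peaks, with a median of -0.20, and none passed the test, while 1 had an unadjusted p under 0.05. Over all tested peaks 2552 of 4746 were below 0, 822 of 971 among those with a mean of 100 or more, and 17.9% reached that p.

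In the H3K4 group, Kmt2e, a SET-domain protein also known as MLL5, had 173 and 186 in control against 109 and 138 in Taf4asKO (log2 fold change -0.54, 95% interval -0.92 to -0.17, limma adjusted p = 0.150). This peak was at the start of 5031425E22Rik, as described above. Setd1b, the catalytic subunit of a COMPASS complex that methylates H3K4, had 124 and 153 against 98 and 105 at a peak 957 bases upstream, and 19 and 13 against 19 and 16 at a peak 8031 bases into the gene.

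The lysine demethylases were the largest family, with 12 peaks, all of them tested. Kdm4a, which removes methyl groups from H3K9 and H3K36, had 573 and 567 in control against 384 and 445 in Taf4asKO, 21 bases past its start in an annotated UTR. The values did not overlap, and the log2 fold change of -0.46 (95% interval -0.73 to -0.20) had a limma adjusted p of 0.107. Its paralogue Kdm4b went the other way in value, with 347 and 209 against 307 and 351, and overlapped. Without control replicate 2 the Kdm4b log2 fold change turned from 0.28 to -0.080. Kdm4d, a further paralogue, had 32 and 39 against 48 and 55 at the promoter shared with Cwc15 (log2 fold change 0.53, 95% interval -0.00012 to 1.06, limma adjusted p = 0.278). The 3 Kdm4 paralogues thus had peaks of different strength, and a difference between their changes was not tested.

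Kdm6b, which removes H3K27 methylation, had a strong peak 5360 bases upstream of its start with 194 and 225 in control against 154 and 182 in Taf4asKO, a strong peak 4971 bases into the gene with 212 and 241 against 183 and 192, and a weak peak at 1780 bases with 13 and 10 against 10 and 11. Neither strong Kdm6b peak passed the test (limma adjusted p = 0.317 and 0.347). The paralogue Kdm6a had 128 and 91 against 104 and 105 at its start. Kdm3a and Kdm3b, H3K9 demethylases, had 217 and 264 against 183 and 226, and 88 and 55 against 83 and 84. Kdm2b, a demethylase that also recruits a Polycomb complex to CpG islands, had 64 and 72 against 62 and 48. Kdm5b, an H3K4 demethylase, had 20 and 23 against 18 and 16, and the peak assigned to its paralogue Kdm5a, at the start of Ccdc77, had 54 and 42 against 57 and 34.

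Arginine methyltransferases were represented by Prmt1 and Prmt5. Prmt5, which makes symmetric dimethylarginine, had 318 and 352 in control against 217 and 222 in Taf4asKO at its start, with no overlap (log2 fold change -0.61, 95% interval -0.90 to -0.31, limma adjusted p = 0.0714). The start peak of Prmt1, which makes most asymmetric dimethylarginine, had 487 and 466 against 367 and 408 (log2 fold change -0.30, 95% interval -0.56 to -0.03, limma adjusted p = 0.228). Its intronic peaks had 16 and 23 against 16 and 16 at 881 bases, and 64 and 42 against 46 and 44 at 2129 bases. All 4 peaks had a log2 fold change below 0, as had 2552 of all 4746 tested peaks, and none passed the test, with 2 at an unadjusted p under 0.05, which 17.9% of all tested peaks reached.

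Among acetyltransferases and ING readers, Ing1, a PHD-finger protein that binds trimethylated H3K4 in Sin3 complexes, had 518 and 512 in control against 321 and 393 in Taf4asKO at the alternative start. The groups did not overlap, and the log2 fold change was -0.53 (95% interval -0.83 to -0.24, limma adjusted p = 0.0967). The other Ing1 peak, 389 bases from the first annotated start, had 114 and 95 against 83 and 96, with overlap. Kat7, the catalytic subunit of the HBO1 acetyltransferase complex, had 116 and 104 against 131 and 138 and was thus among the 3 strong chromatin peaks with a log2 fold change above 0 (0.29, 95% interval -0.08 to 0.65, limma adjusted p = 0.367). Ing3, a subunit of the NuA4 acetyltransferase complex, had 26 and 29 against 27 and 25.

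In the DNA methylation group, Mbd3, a structural subunit of the NuRD complex, had 413 and 437 in control against 271 and 325 in Taf4asKO (log2 fold change -0.52, 95% interval -0.81 to -0.22, limma adjusted p = 0.107). Uhrf1, which brings the maintenance DNA methyltransferase to replicated DNA, had 118 and 108 against 75 and 66 at its start, with a log2 fold change of -0.67 (95% interval -1.08 to -0.27, limma adjusted p = 0.110), the lowest of the 58 peaks. The other Uhrf1 peak 777 bases into the gene had 84 and 85 against 75 and 91, which overlapped, so the 2 peaks of this gene differed in value, and that difference was not tested. Mbd4, a DNA glycosylase for mismatches at methylated CpG sites, had 81 and 59 against 84 and 86 at the promoter shared with Ift122. Tet2, an enzyme that oxidises methylcytosine, had 5 and 7 against 6 and 9 and was not tested.

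The Polycomb and chromobox proteins ranged from strong to barely detected. Cbx5, the heterochromatin protein HP1α, had 513 and 447 in control against 433 and 472 in Taf4asKO across the promoter shared with Hnrnpa1, and the groups overlapped (log2 fold change -0.08, 95% interval -0.36 to 0.19). Cbx8 and Cbx2 belong to canonical Polycomb repressive complex PRC1 and lie close together on chromosome 11. Cbx8 had 121 and 95 against 107 and 128 and Cbx2 had 6 and 7 against 15 and 12 at an intronic peak 3458 bases into the gene. The Cbx2 groups did not overlap, but Cbx2 reached the minimum mean only through Taf4asKO, and its limma adjusted p was 0.322 with a 95% interval of the log2 fold change from -0.11 to 2.01. Ezh2 and Suz12 are core subunits of PRC2, which methylates H3K27. Ezh2 had 49 and 78 against 45 and 61, and the Suz12 peak nearest to the start had 28 and 36 against 22 and 26. The other Suz12 peak 211 bases upstream had 15 and 3 against 6 and 9 and was not tested.

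Remodellers and ARID proteins had mostly weak peaks. Arid4a, an RB-binding protein of Sin3 complexes and the peak with 9 CCAAT, had 334 and 365 in control against 278 and 342 in Taf4asKO, which overlapped. Arid1a and Arid1b, alternative subunits of BAF complexes, had 65 and 101 against 83 and 75, and 33 and 26 against 30 and 46, both in introns. Arid3b had 39 and 42 against 43 and 58, Arid3a 8 and 7 against 4 and 3 (not tested), and Smarcal1, an annealing helicase of stalled replication forks, 8 and 10 against 9 and 17. The CHD remodellers carry chromodomains. Chd6 had 144 and 137 against 116 and 138 at its start, and 8 and 7 against 10 and 15 at 3013 bases upstream. Chd2 had 86 and 91 against 68 and 74, and Chd8 had 15 and 13 against 17 and 17. Chd9 was listed at 0 in both control libraries and at 5 in both Taf4asKO libraries. The 3 reads that a count of 0 allows amount to 3.13 units in control replicate 1 and 9.78 in replicate 2, so the Taf4asKO values lay above the first of these limits and under the other. Chd9 was not tested. Among the symbols taken as bromodomain proteins only Brd2, a BET protein that reads acetylated histones, had a peak, with 15 and 7 against 10 and 14.

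**Figure D5:**
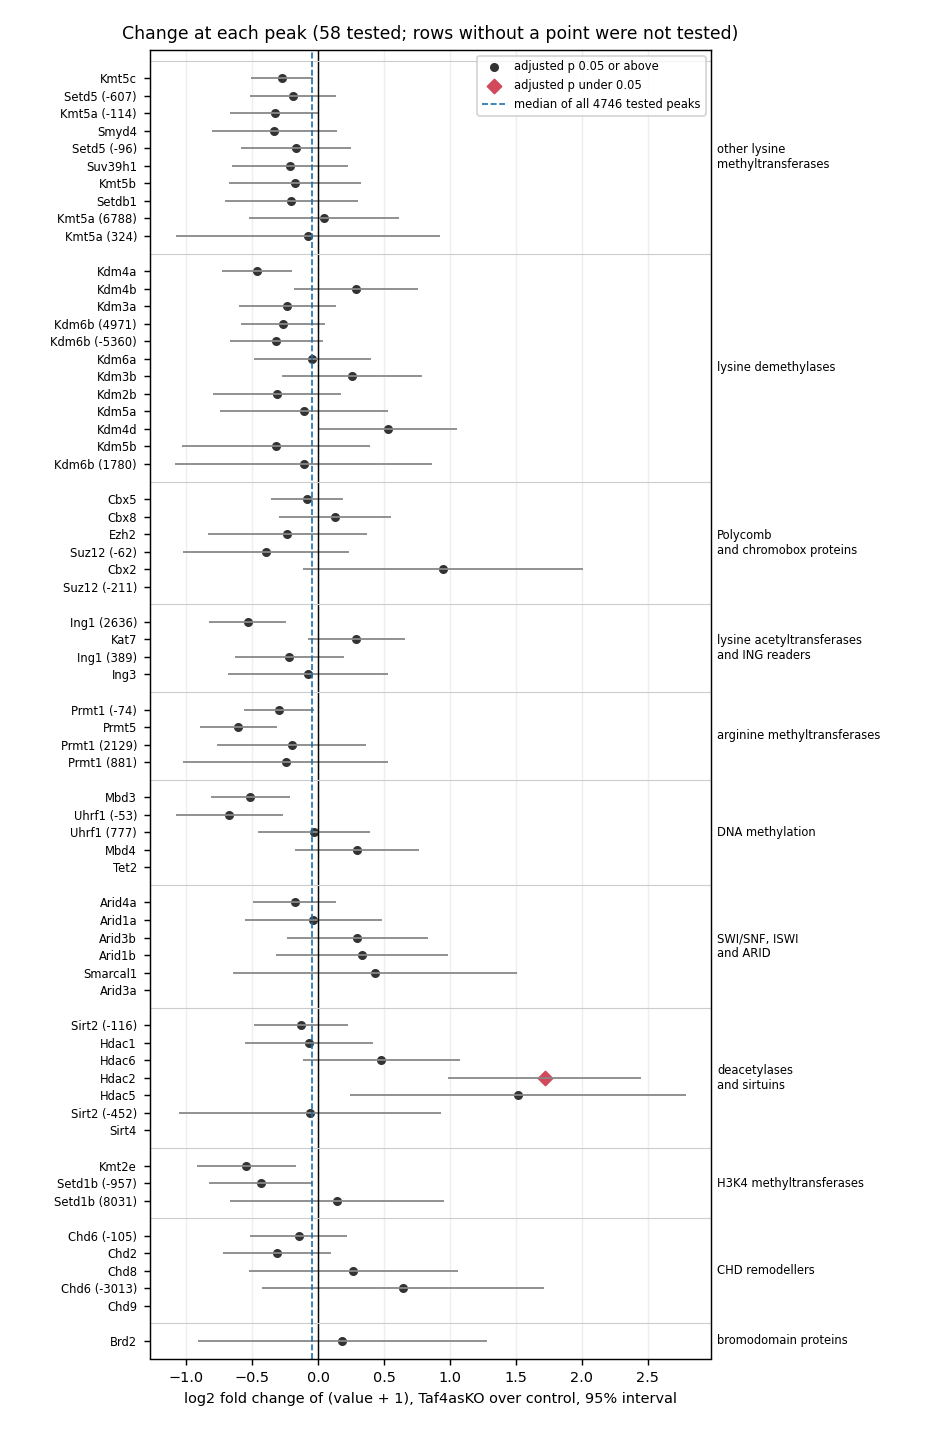
Log2 fold change of (value + 1), Taf4asKO over control, with its 95% interval from limma for the 58 tested peaks, grouped by family; the rows without a point were not tested, and the dashed line is the median of all 4746 tested peaks. Hdac2 (red diamond) is the single peak past an adjusted p of 0.05, and the intervals of Uhrf1, Prmt5, Kmt2e, Ing1, Mbd3, Kdm4a, Setd1b, Prmt1 and Kmt5c (1 peak each) lie below 0, and that of Hdac5 above 0, without passing it.

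A list of 140 further genes of chromatin complexes was taken alongside, made of partners such as Sin3, NuRD, Polycomb, BAF and COMPASS subunits. Of these 42 had a peak, 50 peaks in all, of which 43 were tested. None passed the limma test at an adjusted p of 0.05, where 0.948% of all tested peaks did, and 9 (20.9%) had an unadjusted p under 0.05, against 17.9% of all. The strongest was at Sin3a, the scaffold of the Sin3 deacetylase complex that holds Hdac1, Hdac2, Ing1 and Arid4a. This peak, 4031 bases from the assigned start, had 736 and 643 in control against 546 and 574 in Taf4asKO (log2 fold change -0.30, 95% interval -0.55 to -0.04, limma adjusted p = 0.212). Another Sin3a peak at 1585 bases had 342 and 313 against 283 and 282. Weak ones at 1190 and 3294 bases had 11 and 10 against 11 and 9, and 14 and 3 against 10 and 7. Gatad2a and Gatad2b, subunits of the NuRD complex beside Mbd3, had 374 and 388 against 315 and 324, and 328 and 388 against 267 and 329. The median log2 fold change of the 11 partner peaks of a mean of 100 or more was -0.27, beside -0.27 for the chromatin peaks and -0.22 for all peaks of that strength. Over all 43 tested partner peaks the median was -0.069, with 24 below and 19 above 0.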

How the data were processed

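The authors trimmed reads of 36 bases with Trimmomatic 0.39, aligned them to mm10 with STAR 2.7.11a, removed duplicates with Picard 3.1.1, called peaks per library against IgG with MACS, merged them over libraries, counted reads with featureCounts and normalised with DESeq2 1.36.0 (versions from the submitters' processing notes). The deposited score of each peak is this normalised read number rounded to a whole number, so no count model was run. By their description, each peak was assigned to the nearest gene, within about 10000 bases of its start. In GENCODE M21 the start of another gene, coding or noncoding, lay nearer at 10 of the chromatin peaks, among them those assigned to Kdm5a and Kmt2e. The members and the gene lists were chosen with earlier results of these data known. Peaks with a mean of at least 10 over the 4 NF-YA libraries were tested with limma 3.58.1 (R 4.3.3) on log2(value + 1) with an intensity trend and Benjamini-Hochberg adjustment over 4746 peaks; fold changes on this scale are understated for weak peaks. The code was tested on simulated data. Peak and gene positions were read in GRCm38 with GENCODE M21, which held all 51 gene IDs at the same coordinates. Named were the called peaks, the 10 strongest in control, the 5 largest changes each way without overlap, the strongest of each family, genes with 2 or more peaks, and Mbd3, Prmt1, Suv39h2 and Smyd5; the other peaks were given their values after these were seen. Of the 8 libraries labelled, the 4 with IgG were not analysed here. Wilson intervals and the floors of 3 reads cover counting error only, whereas the intervals of log2 fold changes come from limma and rest on the spread between libraries. The values of 1 peak are not reported here; it is kept in the counts.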

Additional observations from a re-analysis of the deposited data

How the results depend on the processing

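Over all tested peaks the 45 limma calls became 314 with equal medians over all peaks, 137 with equal medians over the tested peaks (added after the data were seen), 131 at an adjusted p under 0.1, 0 without the minimum mean (1015 at an unadjusted p under 0.05) and 0 to 0 with any library left out (227 to 1089 unadjusted). The 1 chromatin peak called became 8, 5 and 3 under the first 3 of these, and 0 without the minimum mean (14 unadjusted) and 0 to 0 with a library left out (6 to 10 unadjusted, the lone library of an arm being assumed to vary like the other group). The replicate number as a block gave 0 chromatin calls (11 unadjusted; Hdac2 at a limma adjusted p of 0.0894) and 31 over all peaks; deviations of same-numbered libraries correlated at -0.088 over 4746 peaks, so the numbers were not taken as pairs. The median log2 fold change was 0.069 when centred on strong peaks (added after the data were seen) and -0.17 to -0.084 with a library left out. At a ratio of 1.5 the peaks lower went from 0 to 2, and those over 2-fold higher numbered 1 to 2 with a library left out. Within 200 bases of the start lay 40.6%, within 5000 bases 85.9%, and 70.3% held CCAAT in the central 100 bases. Over all 58 tested chromatin peaks 18 above and 40 below 0 became 36 and 22 when centred on strong peaks and 29 and 29 with equal totals. Only peaks named by the rule were followed singly, and of these the following, none of which passed the test on the deposited scale, changed sign. The log2 fold change did so when centred on strong peaks at Arid4a (0.032), Cbx5 (0.13), Chd6 at its start (0.060), Kdm6b at 1780 bases (0.082), Kmt5a at 324 bases (0.12), Prmt1 at 2129 bases (0.0061), Setd5 (0.019 and 0.038), Sirt2 (0.13 and 0.077) and Uhrf1 at 777 bases (0.18). With equal totals it did at Cbx5 (0.062), Kdm6b (0.021), Kmt5a (0.058), Sirt2 (0.069 and 0.011) and Uhrf1 (0.11), and with equal medians at Kmt5a at 6788 bases (-0.083). With a library left out it ran from -0.32 to 0.68 at Brd2, -0.18 to 0.016 at Cbx5, -0.080 to 0.65 at Kdm4b, -0.29 to 0.063 at Kdm6b at 1780 bases, -0.74 to 0.58 and -0.18 to 0.26 at Kmt5a at 324 and 6788 bases, -0.50 to 0.097 at Prmt1 at 2129 bases, -0.12 to 0.40 at Setd1b at 8031 bases, -0.27 to 0.00010 at Sirt2 at 116 bases and -0.17 to 0.11 at Uhrf1 at 777 bases. The cause was not tested, except that fewer libraries leave limma less to test with. Depth limits the weak peaks, in control replicate 2 more than in control replicate 1.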
